A study of Schmidtea mediterranea with 11 samples.

Results

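p53, egr-1, soxP-3 and fgfr-1 are genes of the zeta-neoblasts, and their transcript levels were followed across all 11 whole-worm libraries of the series. They were taken by transcript identifier, as comp5563_c0_seq1 (p53), comp3935_c0_seq1 (egr-1), comp5942_c0_seq1 (soxP-3) and comp6020_c0_seq1 (fgfr-1), and make up 4 of the 26562 transcripts in the deposited table. The table itself holds no gene names. All animals were adults of the asexual Berlin-1 strain of Schmidtea mediterranea, a clonal line raised from 1 individual, and RNA was polyA-selected from whole worms. control(RNAi) worms were injected with dsRNA for gfp, bruli(RNAi) worms with dsRNA against Smed-bruno-like, and mbnl(RNAi) worms with dsRNAs against Smed-mbnl-1 and Smed-mbnl-like-1, -2 and -3 together. Injections ran over 3 consecutive days, and each of the 3 groups has 1 library at day 20, 1 at day 25 and 1 at day 30. Worms injected against the histone gene smed-h2b gave 1 further library, and worms injected against the piwi gene smedwi-2 gave another, both without a sampling day in the labels. The number of worms behind a library is not given in the sources used here.

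Neoblasts are the dividing cells of planarians, the source of every new cell in growth and regeneration. Zeta-neoblasts are a class of them that gives rise to the epidermal lineage, whose early postmitotic progeny express prog genes. The other broad class, the sigma-neoblasts, responds to wounding. p53 encodes the planarian homologue of the tumour suppressor and egr-1 a zinc finger factor of the early growth response family. soxP-3 encodes an HMG-box factor of the SoxP family, and fgfr-1 a receptor tyrosine kinase for fibroblast growth factors. bruli is a CELF-family splicing factor of neoblasts, and mbnl genes encode Muscleblind-type splicing factors.

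In control worms the 4 genes were expressed at moderate and steady levels. The values are in TPM, the share of a library that a transcript takes after correction for its length, so levels of different genes can be compared. p53 was the most abundant, at 41.8, 39.2 and 39.1 TPM at days 20, 25 and 30. soxP-3 followed at 29.0, 25.7 and 29.0 TPM, and egr-1 at 22.6, 21.0 and 21.8 TPM. fgfr-1 was the lowest, at 14.9, 17.95 and 17.93 TPM. The ranges of neighbouring genes in this order did not overlap among the controls, and the order was the same in each of the 3 control libraries. The standard deviation across the 3 control libraries was between 3.78% of the mean for p53 and 10.3% for fgfr-1.

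The series as a whole was read first for its targets and for markers of other cells. bruli mRNA stood at 82.9 to 84.9 TPM in control and at 3.33 to 6.33 TPM after bruli knockdown, without overlap. After mbnl knockdown the mRNAs of mbnl-1 and of the first and second mbnl-like genes were lower than control past the test (log2 differences of -0.99, -1.96 and -1.56, adjusted p of 0.00113, 0.000170 and 0.000558 from limma). mbnl-like-3 was at 1.62 to 2.81 TPM after mbnl knockdown and at 2.03 to 3.03 TPM in control. The targets of the smed-h2b(RNAi) and smedwi-2(RNAi) libraries were not checked here. A pair of lists of RNA binding proteins, chosen by their enrichment in sorted cells from other libraries, were used to describe the cell mix. Knockdown targets were not removed from the lists, so a target that met the threshold counts in their sums and calls. The 17 neoblast-enriched transcripts summed to 904 to 975 TPM in control, 316 to 404 TPM after bruli knockdown and 1011 to 1117 TPM after mbnl knockdown. The 43 transcripts of differentiated cells summed to 1762 to 1933 TPM in control, 1815 to 1841 TPM after bruli knockdown and 1796 to 1958 TPM after mbnl knockdown. At most 1 transcript of either list was at 0 in any of these 9 libraries.

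bruli knockdown lowered all 4 zeta-neoblast genes. p53, the tumour suppressor homologue, was at 29.6, 18.4 and 13.1 TPM at days 20, 25 and 30 of bruli(RNAi). egr-1, the zinc finger factor, was at 12.9, 8.29 and 6.60 TPM. The highest bruli library of either gene lay below the lowest control, so that the groups did not overlap. soxP-3 was at 21.6, 11.9 and 9.73 TPM after bruli knockdown, and fgfr-1 at 10.5, 6.81 and 5.04 TPM. These too were below the lowest control in each bruli library, and for each of the 4 genes day 20 was the highest bruli library and day 30 the lowest. The same separation from control, with each bruli library below each control, was found in 18.6% of the 15492 transcripts tested, those with a mean log2(TPM+1) above 1.5 over the 9 time course libraries, among which were all 4 genes. In whole worms, fewer cells of a type and less RNA per cell cannot be told apart. The neoblast-enriched list was lower in the same 3 libraries (316 to 404 TPM against 904 to 975 TPM in control), and its part in these values was not tested.

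**Figure D1:**
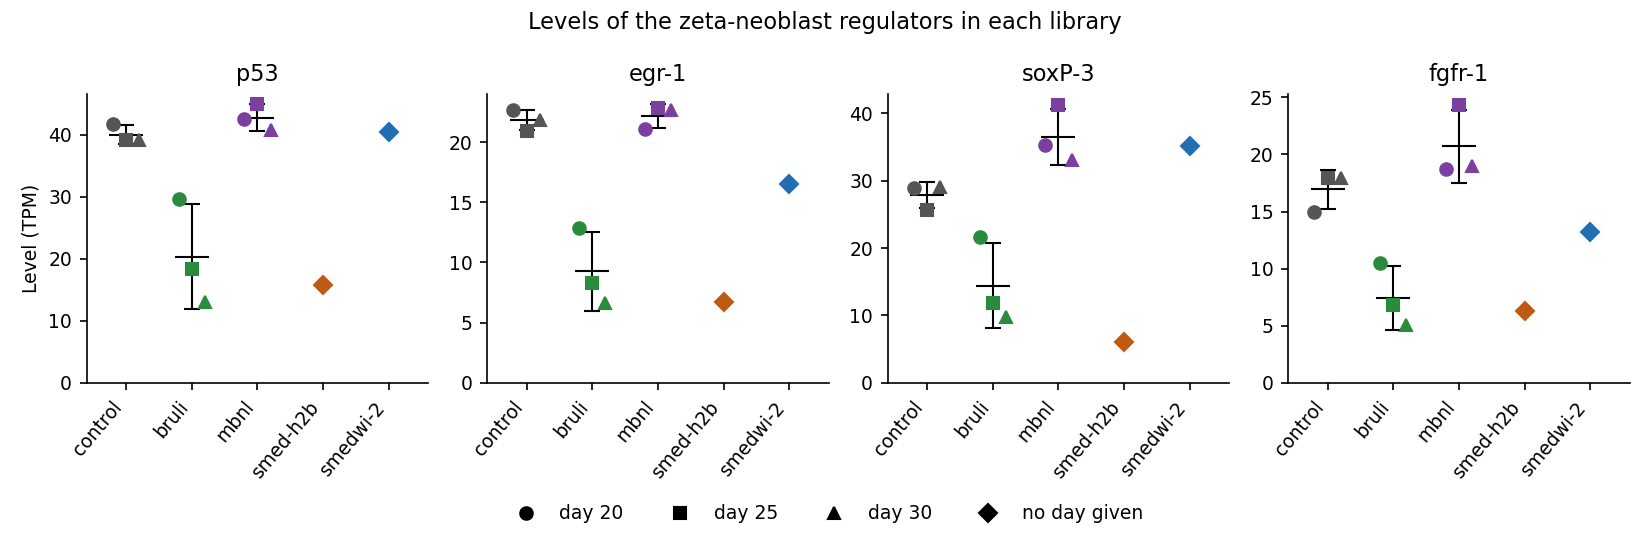
Levels (TPM, y axis from 0, a scale for each gene) of p53, egr-1, soxP-3 and fgfr-1 in the 11 libraries by knockdown (x axis). Symbols give the day, diamonds are libraries without a day, and horizontal marks with bars are the mean and SD of 3 libraries. The 3 bruli libraries of each gene lie below its 3 controls, and the smed-h2b library lies between the day 25 and day 30 bruli libraries, except for soxP-3, where it lies below all 3.

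The comparison with control was fitted across all 15492 tested transcripts with limma, on log2(TPM+1), with the day as a block and p-values adjusted by the Benjamini-Hochberg method. On this scale egr-1 differed from control by -1.20 (standard error 0.17, adjusted p = 0.00274 from limma), with a 95% interval from -1.58 to -0.82. fgfr-1 differed by -1.13 (standard error 0.20, adjusted p = 0.00665 from limma). p53 differed by -1.02 (standard error 0.18, adjusted p = 0.00646 from limma), and soxP-3 by -0.98 (standard error 0.20, adjusted p = 0.0107 from limma). Thus 4 of 4 passed the test, against 11.3% of all tested transcripts called lower in this comparison. The median difference over all tested transcripts was 0.0049, and between 1.00% (egr-1) and 1.59% (soxP-3) of them lay at or below the value of the gene. The 4 intervals overlapped, the outermost being -1.59 to -0.67 for fgfr-1 and -1.43 to -0.53 for soxP-3.

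soxP-3 was the least secure of the 4 calls. Its adjusted p in limma was 0.0672 without the bruli library of day 25, 0.0626 without that of day 30 and 0.0519 without the control of day 30. Without all libraries of day 25 none of the 4 passed, with adjusted p from 0.0612 (egr-1) to 0.102 (soxP-3) in limma. Without all libraries of day 30 only egr-1 passed, and p53, fgfr-1 and soxP-3 had adjusted p of 0.0601, 0.0794 and 0.111 in limma. The log2 differences in these refits stayed between -0.73 (soxP-3, without day 30) and -1.18 (egr-1, without day 25).

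The distance from control was greater at each later day. p53 stood at 70.8% of the control of the same day at day 20, at 46.9% at day 25 and at 33.4% at day 30. soxP-3 ran close to it, at 74.6%, 46.3% and 33.6%. fgfr-1 was at 70.2%, 37.95% and 28.1%, and egr-1, already the lowest of the 4 at day 20, at 57.0%, 39.5% and 30.2%. All 4 differences on the log2 scale were more negative at each later day, a pattern shared by 31.5% of the tested transcripts. With a log2 difference of -0.7 or lower at day 30 as well, which 4 of 4 also had, the share was 6.82%. At the study's threshold of -0.7, 1 of the 4 genes (egr-1, at -0.77) was lower at day 20, against 3.05% of tested transcripts. At day 25 it was 4 of 4, from -1.28 to -1.05, against 6.05%, and at day 30 it was 4 of 4, from -1.65 to -1.48, against 9.64%. Each of these days is 1 library against 1, so no single day has a test.

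The time trend was tested as a difference in slope between bruli and control, with day as a number, in a limma fit over the same transcripts. The slope difference was -0.12 per day on the log2 scale for fgfr-1 (adjusted p = 0.423 from limma) and -0.11 for soxP-3 (adjusted p = 0.438 from limma). For p53 it was -0.10 (adjusted p = 0.410 from limma) and for egr-1 -0.082 (adjusted p = 0.432 from limma). None of the 4 passed, nor did any of the 15492 transcripts (0% called), while 4 of 4 genes and 1160 transcripts in all (7.49%) had a lower slope at an unadjusted p under 0.05 in limma. Without the bruli library of day 20 the slope difference was -0.053 for soxP-3 and -0.053 for egr-1, and without that of day 30 it was -0.16 for soxP-3. The 95% intervals of the 4 slope differences lay below 0, and the widest ran from -0.19 to -0.042 for fgfr-1. In the controls themselves the slopes lay between -0.0093 (p53) and 0.025 (fgfr-1) per day.

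**Figure D2:**
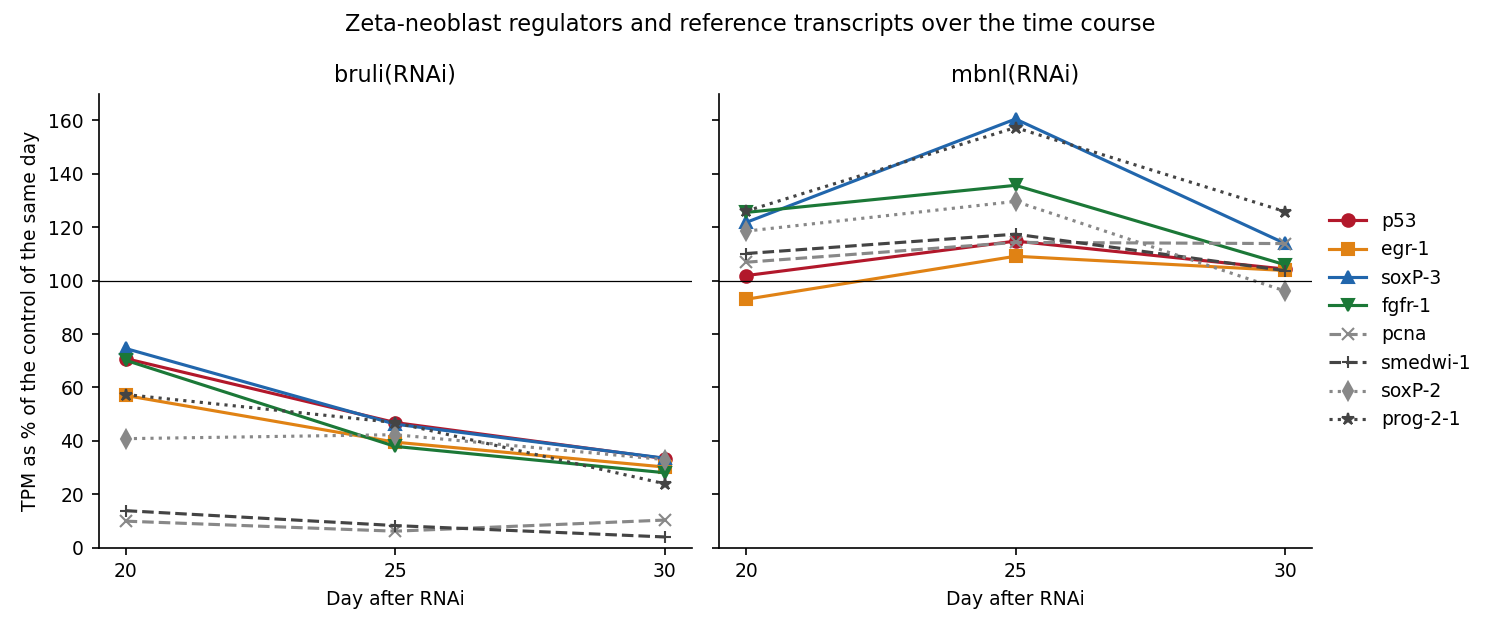
TPM as a percentage of the control library of the same day (y axis) at days 20, 25 and 30 (x axis) after bruli and mbnl knockdown, 1 library a point. Solid lines are p53, egr-1, soxP-3 and fgfr-1, and broken lines are reference transcripts. After bruli knockdown the 4 genes go from 57.0% to 74.6% at day 20 down to 28.1% to 33.6% at day 30, while pcna is at 9.98% already at day 20.

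pcna and smedwi-1, both general neoblast transcripts, stood further below control than the 4 genes at each sampled day. This did not hold for neoblast transcripts at large. The tested neoblast-enriched RNA binding proteins had a median log2 difference of -0.87 after bruli knockdown, less negative than that of any of the 4 genes. pcna, a replication factor of cycling cells, was at 9.98%, 6.23% and 10.4% of control at days 20, 25 and 30 of bruli(RNAi). smedwi-1, a piwi gene of neoblasts, was at 13.9%, 8.33% and 4.07%. soxP-2, a SoxP-family gene of the sigma-neoblasts, was at 40.8%, 42.3% and 33.0%, and so lay below the 4 zeta-neoblast genes at day 20 and between them at day 30. Of the early epidermal progeny transcripts, prog-1 was at 36.2%, 27.8% and 9.62%, and prog-2-1 at 57.4%, 46.9% and 24.0%. pcna and soxP-2 had slope differences of 0.0047 and -0.027 per day (adjusted p of 0.981 and 0.783 from limma), while those of smedwi-1, prog-1 and prog-2-1 were -0.17, -0.19 and -0.13 (adjusted p of 0.223, 0.410 and 0.410 from limma). That the slopes of the zeta-neoblast genes differ from these was not tested.

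Within a library, each of the 4 genes was higher relative to pcna and to smedwi-1 after bruli knockdown. That follows from the choice of reference transcripts and is no trait of the 4 genes. In log2 difference from control after bruli knockdown, 99.98% of all tested transcripts lay at or above pcna, and 99.99% at or above smedwi-1. The log2 ratio of p53 to pcna, taken on TPM+1, was -0.48 ± 0.053 (SD, n = 3) in control and 1.79 ± 0.66 (SD, n = 3) after bruli knockdown. That of soxP-3 to smedwi-1 was -2.83 ± 0.13 (SD, n = 3) in control and -0.21 ± 0.34 (SD, n = 3) after bruli knockdown. All 8 ratios were higher, by 2.08 (egr-1 to pcna) to 2.61 (soxP-3 to smedwi-1) on the log2 scale. In each the bruli and control libraries did not overlap, and the share of all transcripts with such a separation was not counted. A two-sided exact permutation test of 3 libraries against 3 cannot go below p = 0.1, which each of the 8 reached (0.178 after adjustment over the 16 comparisons with bruli and mbnl), so none is past a threshold of 0.05.

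Ratios between the 4 genes were compared within each library, in an exact permutation test that cannot pass 0.05 with 3 libraries a group. The TPM ratio of p53 to soxP-3 was 1.44, 1.53 and 1.35 in control at days 20, 25 and 30, and 1.37, 1.55 and 1.34 after bruli knockdown. These ranges overlapped almost fully. The change in log2 ratio from control was -0.036 for this pair (exact permutation p = 0.7) and -0.065 for egr-1 to fgfr-1 (exact permutation p = 0.9). On the scale of log2(TPM+1) the largest changes among the 6 pairs were 0.18 for p53 to egr-1 and -0.22 for egr-1 to soxP-3, each without overlap between the groups and with an exact permutation p of 0.1, the smallest that 3 against 3 libraries allow, and 0.3 after adjustment over 12 comparisons. With a pseudocount of 5 these changes were 0.053 and -0.13, and that of p53 to egr-1 was then smaller than that of egr-1 to fgfr-1 (-0.096). The share of other pairs of transcripts without overlap between bruli and control was not counted. The order p53, soxP-3, egr-1, fgfr-1 was that of the controls in each of the 3 bruli libraries.

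mbnl knockdown moved none of the 4 genes past the test. soxP-3 was at 35.3, 41.2 and 33.0 TPM at days 20, 25 and 30 of mbnl(RNAi), each above the highest control of 29.0 TPM. fgfr-1 was at 18.7, 24.3 and 19.0 TPM, also above the highest control of 17.95 TPM. p53 was at 42.6, 45.0 and 40.8 TPM and egr-1 at 21.0, 22.9 and 22.6 TPM, and both overlapped the controls. So 2 of the 4 genes lay above control in each library, which 20.0% of all tested transcripts did. For soxP-3 and fgfr-1 day 25 was the highest mbnl library, and the control of day 25 was the lowest soxP-3 control, so that soxP-3 stood at 121.7%, 160.5% and 113.9% of the control of its day. At day 25 of mbnl(RNAi) prog-1 was at 170% of control, prog-2-1 at 157%, soxP-2 at 130%, smedwi-1 at 117% and pcna at 114%. Both prog-1 and prog-2-1 also had their lowest control at day 25. With TPM as deposited none of the 4 genes reached a log2 difference of 0.7 in either direction at any day, the nearest being soxP-3 at day 25 (0.66). With quantile normalization of the controls soxP-3 passed 0.7 at day 25 (0.71). At 0.7 or higher were 6.51%, 2.89% and 4.88% of tested transcripts at days 20, 25 and 30, and at -0.7 or lower 1.93%, 2.19% and 2.46%.

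On the log2 scale soxP-3 differed from control after mbnl knockdown by 0.37 (standard error 0.20, adjusted p = 0.283 from limma), with a 95% interval from -0.075 to 0.82. fgfr-1 differed by 0.27 (interval -0.19 to 0.73, adjusted p = 0.450 from limma). p53 and egr-1 differed by 0.093 and 0.024 (adjusted p of 0.791 and 0.948 from limma), with intervals from -0.31 to 0.50 and from -0.36 to 0.40. Of all tested transcripts 5.99% were called in this comparison, 4.31% as higher. At an unadjusted p under 0.05 in limma there were 0 of the 4, against 24.2% of all tested transcripts. The soxP-3 difference was 0.21 without the mbnl library of day 25, and 0.57 without that of day 20. That of fgfr-1 was 0.094 without the control of day 20 and 0.45 without that of day 30, and neither gene passed in any of these refits. Where a control or an mbnl library is left out, the day term also draws on the bruli libraries. These values are therefore not those of the remaining same-day pairs alone. The same-day differences of fgfr-1 were 0.31, 0.42 and 0.079 at days 20, 25 and 30, and those of soxP-3 were 0.28, 0.66 and 0.18. The median over all tested transcripts was 0.11 after mbnl knockdown, above the values of p53 and egr-1, and with each library centred on its median p53 and egr-1 were below control, at -0.037 and -0.11, while soxP-3 and fgfr-1 stayed above, at 0.24 and 0.14. Slope differences from control were between -0.023 (fgfr-1) and 0.015 (egr-1) per day, with adjusted p of 0.916 and 0.925 from limma.

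Relative to soxP-3, p53 and egr-1 were lower in each mbnl library than in any control. The TPM ratio of p53 to soxP-3 was 1.21, 1.09 and 1.24 at days 20, 25 and 30 of mbnl(RNAi), below the control range of 1.35 to 1.53. The change was -0.28 on the log2 scale for p53 to soxP-3 and -0.35 for egr-1 to soxP-3, each with an exact permutation p of 0.1, the smallest possible, and 0.3 after adjustment over 12 comparisons. In the mbnl library of day 25 fgfr-1 (24.3 TPM) was above egr-1 (22.9 TPM), the reverse of the order in the controls.

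The direct comparison of the knockdowns, in which the control libraries enter only through the shared spread and the day, gave lower levels after bruli than after mbnl knockdown for all 4 genes. fgfr-1 was lower by a log2 difference of -1.40 (interval -1.86 to -0.94, adjusted p = 0.00179 from limma) and soxP-3 by -1.35 (interval -1.80 to -0.90, adjusted p = 0.00190 from limma). egr-1 was lower by -1.22 (adjusted p = 0.00152 from limma) and p53 by -1.11 (adjusted p = 0.00290 from limma). In this comparison 20.0% of all tested transcripts were called lower. egr-1, soxP-3 and fgfr-1 passed whichever library or day was left out, and p53 did not pass without all libraries of day 25 (adjusted p = 0.0571 from limma).

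**Figure D3:**
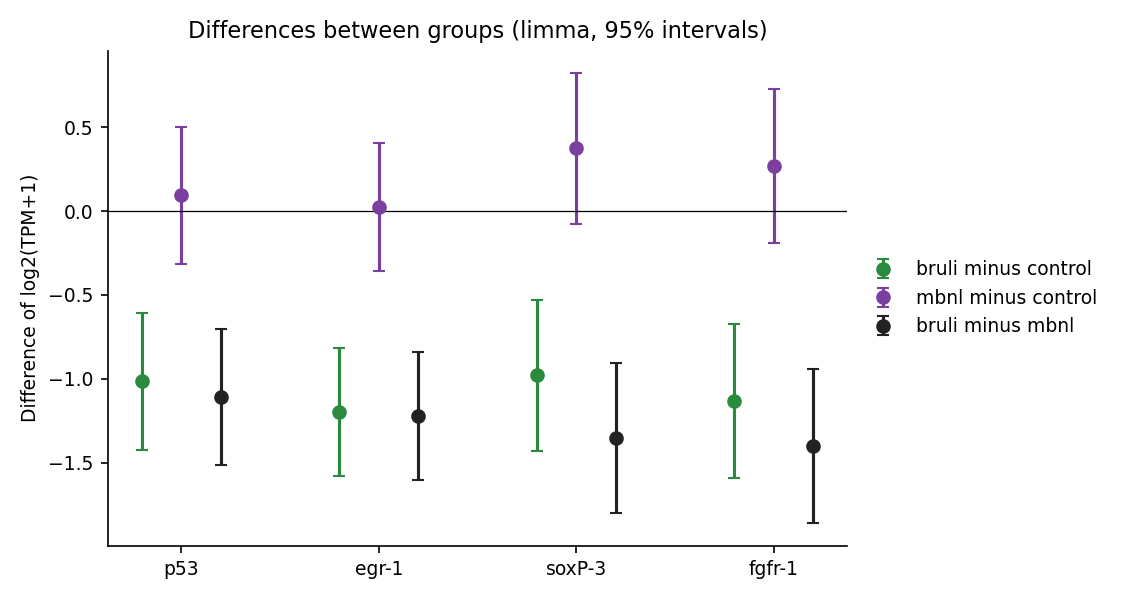
Differences of log2(TPM+1) between groups (y axis) for p53, egr-1, soxP-3 and fgfr-1 (x axis), as limma estimates with 95% intervals from the 9 time course libraries. The intervals of bruli minus control and of bruli minus mbnl lie below 0 for each gene, and those of mbnl minus control include 0.

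The smed-h2b(RNAi) library held the lowest soxP-3 level of the series. Knockdown of this histone gene is known to eliminate neoblasts. soxP-3 was at 5.99 TPM there, which is 21.5% of the control mean, against 25.7 to 29.0 TPM in the controls. egr-1 was at 6.69 TPM (30.7% of the control mean), fgfr-1 at 6.29 TPM (37.1%) and p53 at 15.8 TPM (39.3%). All 4 were below their lowest control, as were 32.4% of the tested transcripts, and all 4 were lower by more than 0.7 on the log2 scale, as were 6.31%. The log2 difference from the control mean was -2.04 for soxP-3, and 0.071% of the tested transcripts lay at or below it. For egr-1 it was -1.57, for fgfr-1 -1.30 and for p53 -1.29, with 0.426% to 0.884% of transcripts at or below. With 1 library and no day these values have no replicate check.

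The proportions among the 4 genes in the smed-h2b library were not those of the bruli libraries. soxP-3 was the lowest of the 4 there, after p53, egr-1 and fgfr-1, and in each of the other 10 libraries it was second to p53. The TPM ratio of p53 to soxP-3 was 2.63, above the 1.09 to 1.55 of all the others. pcna was at 29.8% of the control mean and smedwi-1 at 25.2%, so that soxP-3 was reduced further than either, which it was in none of the bruli libraries. The neoblast-enriched list summed to 413 TPM in this library, above the 404 TPM of the highest bruli library, and the differentiated-cell list to 1967 TPM.

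In the smedwi-2(RNAi) library the 4 genes were divided between above, within and below the controls, as tested transcripts in general were. Worms without this piwi gene are known to keep neoblasts for some time but to fail in replacing differentiated cells. p53 was at 40.4 TPM, within the control range. soxP-3 was at 35.1 TPM (126% of the control mean), above all controls, as were 36.0% of the tested transcripts. egr-1 was at 16.5 TPM (75.6%) and fgfr-1 at 13.2 TPM (78.0%), below all controls, as were 32.4% of the tested transcripts. None of the 4 differed from the control mean by 0.7 or more on the log2 scale, which 6.52% of transcripts did downwards and 5.07% upwards. In the same library pcna was at 164% and smedwi-1 at 128% of the control mean, and the neoblast-enriched list summed to 1232 TPM.

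**Figure D4:**
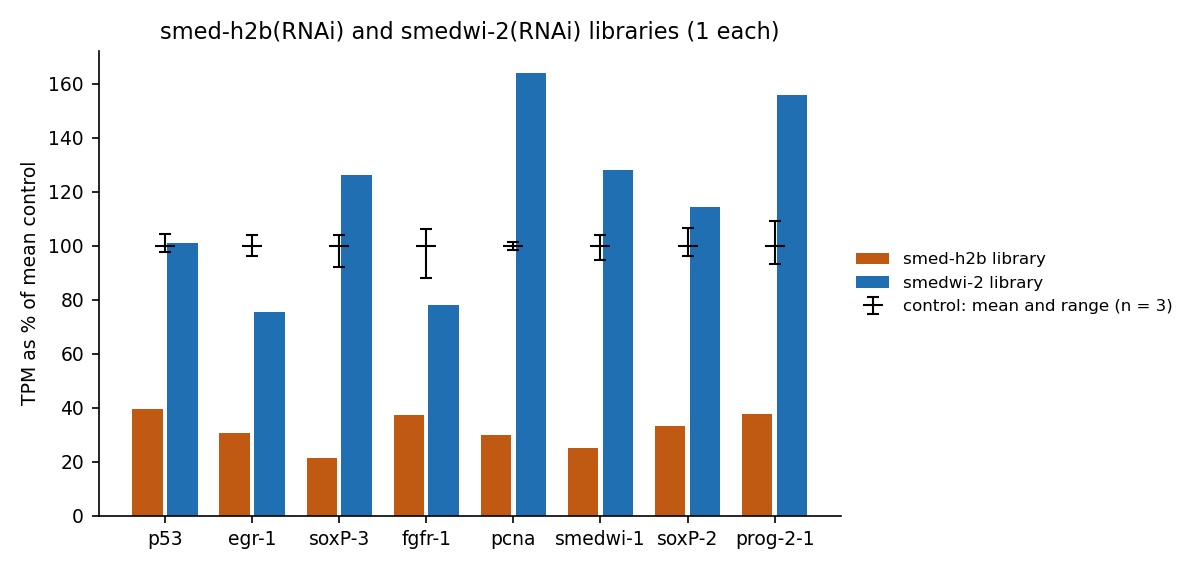
TPM in the smed-h2b and smedwi-2 libraries as a percentage of the control mean (y axis from 0) for the 4 zeta-neoblast genes and 4 reference transcripts (x axis). Bars are 1 library each, and black marks give the mean and range of the 3 controls. soxP-3 has the shortest smed-h2b bar (21.5%), and among the 4 zeta-neoblast genes it has the tallest smedwi-2 bar (126%).

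The RNA binding proteins whose pattern was most like that of the 4 genes were found by the root mean square difference in log2 change from the control mean over the 8 knockdown libraries. Among 269 tested transcripts with a human best hit, the closest to p53 was comp1327_c0_seq1 (HNRNPL, a splicing regulator), at a distance of 0.24, where the median candidate was at 0.60. The next were comp887_c0_seq1 (SNRPN, a core splicing protein) at 0.26 and comp15229_c0_seq1 (DDX55, an RNA helicase) at 0.28. The HNRNPL transcript was also the closest to egr-1 (0.30, median 0.74). For fgfr-1 it was comp6567_c0_seq1 (RBFOX1, a splicing regulator), at 0.28 (median 0.67). soxP-3 was closest to comp1985_c0_seq1 (DDX4, the vasa helicase), at 0.33 (median 0.80). Among the 4 genes themselves the same distance was smallest for p53 and fgfr-1 (0.20), egr-1 and fgfr-1 (0.20) and p53 and egr-1 (0.22), and soxP-3 was at 0.34 to 0.41 from the others. These distances are descriptions, since the 8 libraries share the same 3 controls.

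Other neoblast transcripts fell in the same libraries. Of the 17 neoblast-enriched RNA binding proteins 15 were tested, and 14 were lower after bruli knockdown and 0 higher, where 11.3% of all tested transcripts were called lower and 6.75% higher. Knockdown targets were not removed from this list, and it was not counted without them. The median log2 difference of the tested list was -0.87, closer to 0 than that of any of the 4 genes. The count of lower transcripts was 6 with day 25 left out entirely, and 8 with day 30 left out in the same way. After mbnl knockdown 0 of the 15 passed in either direction, against 5.99% of all tested transcripts, with a median of 0.15. Of 42 tested transcripts of differentiated cells 1 was lower and 5 were higher after bruli knockdown, with a median of 0.10. After mbnl knockdown 1 of the 42 was lower and 4 were higher, with a median of 0.081. Of all 15492 tested transcripts 261 were called lower and 667 higher after mbnl knockdown, with a median of 0.11. The count of 5 higher after bruli knockdown was 0 without the bruli library of day 25 and 0 with day 25 or day 30 left out entirely. It was 1 without the control of day 25 or of day 30, 2 without the bruli library of day 30, and 3 without that of day 20 or the mbnl library of day 25. The 1 lower after bruli knockdown was also lost when day 25 or day 30 was left out entirely.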

How the data were processed

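Whole-worm polyA RNA was sequenced in 11 libraries. Per the paper's methods and the submitters' processing notes, the authors trimmed adapters, filtered out rRNA by alignment, aligned what was left against the Dresden transcriptome (Bowtie2 2.1.0), counted with HTSeq 0.6.1p1 and deposited TPM values. How counts became TPM is not given in the sources used here, and TPM keeps no counts, so counting error could not be computed. The library table of the study gives between 7529400 and 12021874 reads per time course library, and no depth for the 2 single libraries was found in it.

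log2(TPM+1) was computed, and 15492 transcripts with a mean above 1.5 over the 9 libraries were tested, among them the 4 genes. Linear models with terms for group and day were fitted in limma 3.58.1 (R 4.3.3), moderated with an intensity trend (4 residual and 5.26 prior degrees of freedom) and, for trends, group-specific slopes over days (3 residual). Benjamini-Hochberg adjustment ran over all tested transcripts, with a threshold of 0.05. Days served as replicates, and since no source states that they are separate cohorts, a p-value covers library-to-library spread that may be technical. A single spread per transcript was fitted for all groups, so the day trend within bruli also enters the mbnl intervals. For the 4 genes the SD was 35.2% to 44.0% of the mean TPM after bruli knockdown. It was 3.78% to 10.3% in control and 4.47% to 15.3% after mbnl knockdown. The day was a block because the labels give it and the study set knockdown and control side by side within a day. Same-day libraries had deviations from group means correlated by -0.012 to 0.26 (9 pairs). Fold changes on this scale understate changes of weakly expressed genes. The procedure was run on simulated data with constant shifts or linear slopes and equal spread in all groups. A day trend in bruli alone was not simulated for the fit of levels, so that run does not cover it.

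The 4 genes, the reference transcripts and the lists (log2 cRPKM, a length- and depth-corrected level, in sorted dividing X1 cells minus differentiated Xins cells, of 3 or more, or -1 or less, in the study's table of RNA binding proteins) were chosen with earlier results of these data known. The text names the 4 genes, the knockdown targets, 5 reference transcripts and, for likeness, RNA binding proteins among the 3 nearest to each gene. Alternatives were pseudocounts, filters, scalings (among them quantile normalization of the controls, a step of the authors' analysis), no day block, only the 2 groups compared, no trend and leaving out libraries or days.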

Additional observations from a re-analysis of the deposited data

How the results depend on the processing

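All 4 genes stayed lower after bruli knockdown, past the test, under each of 10 settings that kept every bruli and control library. These include the fit with no replicate block and the fit of only the 2 groups compared, which drops the mbnl libraries. Without the day block the differences were the same by construction and no call changed, with adjusted p in limma from 0.00242 (egr-1) to 0.0149 (soxP-3). Leaving out 1 library or 1 day gave log2 differences from -1.30 to -0.77 (p53), -1.44 to -0.997 (egr-1), -1.29 to -0.73 (soxP-3) and -1.46 to -0.88 (fgfr-1), and 0 to 4 genes called lower. Against mbnl these were -1.41 to -0.87 (p53), with 3 or 4 genes called. After mbnl knockdown none was called under any of 22 settings. The difference of p53 was -0.017 and that of egr-1 -0.10 after quantile normalization of all libraries, and -0.037 and -0.11 after median centring. Leaving out libraries gave -0.023 to 0.26 for p53, -0.087 to 0.19 for egr-1, 0.21 to 0.57 for soxP-3 and 0.094 to 0.45 for fgfr-1. The day term of these fits also drew on the bruli libraries. The slope difference of soxP-3 after mbnl knockdown was 0.00013 with quantile-normalized controls. Leaving out a library gave bruli slope differences of -0.12 to -0.083 (p53), -0.11 to -0.053 (egr-1), -0.16 to -0.053 (soxP-3) and -0.14 to -0.092 (fgfr-1) per day, none past the test, and mbnl slope differences of -0.018 to 0.025 (p53), -0.0011 to 0.031 (egr-1), -0.062 to 0.043 (soxP-3) and -0.093 to 0.047 (fgfr-1) per day. The smed-h2b differences shrank with a pseudocount of 5 to -1.12 (p53), -1.20 (egr-1), -1.58 (soxP-3) and -0.96 (fgfr-1), and the smedwi-2 difference of egr-1 to -0.32, and with 0.5 that of egr-1 in smed-h2b was -1.63. The ratio of p53 to smedwi-1 after mbnl knockdown moved from -0.092 to 0.022 when a library was left out, and that of p53 to fgfr-1 after bruli knockdown was -0.043 with a pseudocount of 5. Settings for the ratios and the lists were chosen after seeing the data. With unknown counts per transcript and 3 libraries a group, small differences were not resolved.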
